A study of Arabidopsis thaliana with 96 samples.

Results

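Open chromatin that was found in leaves of every one of 5 *Arabidopsis thaliana* accessions, Ad-0, En-2, Hi, Mt and Og, is described here. The members are 3903 regions that together cover 887806 bp, 0.745% of the nuclear genome. They were selected on the deposited ATAC-seq peak lists themselves. The consensus of an accession was taken as the bases that lie in peaks of 2 or more of its 4 files, and a member is a run of 50 bp or longer that lies in the consensus of all 5 accessions. Merging the 5 consensus sets gave 23302 regions in all. The members are the stretches inside these regions that no accession lacks, so the 2 counts are of different units. The heights, widths and the number of members follow from the lists that chose them, so they are given as a description and without a test.

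The series holds 96 peak lists of 24 groups, with 4 files each. The 5 accessions were used because their lists, and those of a Col-0 group labelled untreated, carry the names of the reference chromosomes, and their positions fit the TAIR10 nuclear chromosomes. All plants were of the named natural accession with no further treatment in the labels. They were kept at 22 °C in 16 h of light and 8 h of dark, and the tissue of every sample is leaf. A leaf sample pools mesophyll, epidermis, guard cells and vasculature, so a region open in a minor cell type is diluted. The file headers of untreated Col-0 name naked DNA, and this group was used as the background of the transposase on DNA without chromatin.

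ATAC-seq uses the Tn5 transposase, which inserts sequencing adapters into DNA that nucleosomes leave exposed. In plants such regions lie mainly just before transcription starts, where transcription factors and the RNA polymerase machinery keep nucleosomes away. The G-box is the best known binding site in light-regulated and hormone-regulated plant promoters, and is bound by basic leucine zipper proteins such as HY5 and GBF3 and by basic helix-loop-helix proteins such as the PIFs. Site II elements are bound by TCP factors and are typical of genes for ribosomal proteins and cell growth, and evening elements are bound by clock proteins of the CCA1 family.

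The first set of sequences shows the middle 150 bp of the 5 members with the highest signal outside untreated Col-0 peaks. Sequences are from the RefSeq copy of TAIR10, 5′ to 3′ on the + strand, and capitals mark the letters of any of the 9 motifs that were searched on both strands.
GolS2, chr1:21207121-21207270, + strand: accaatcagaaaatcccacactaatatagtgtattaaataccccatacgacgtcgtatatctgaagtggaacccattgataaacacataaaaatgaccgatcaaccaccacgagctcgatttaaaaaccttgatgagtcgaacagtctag
AT4G03435, chr4:1520654-1520803, + strand: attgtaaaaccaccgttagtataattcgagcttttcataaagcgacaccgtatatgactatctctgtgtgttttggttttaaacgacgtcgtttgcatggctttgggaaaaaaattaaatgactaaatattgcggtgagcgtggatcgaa
GI, chr1:8060865-8061014, + strand: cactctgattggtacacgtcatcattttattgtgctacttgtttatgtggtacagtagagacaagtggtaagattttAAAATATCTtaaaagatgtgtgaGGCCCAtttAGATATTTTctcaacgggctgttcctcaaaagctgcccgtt
STOP1, chr1:12550204-12550353, + strand: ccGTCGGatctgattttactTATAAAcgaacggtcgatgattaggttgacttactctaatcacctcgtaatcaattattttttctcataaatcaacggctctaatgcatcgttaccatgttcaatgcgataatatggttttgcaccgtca
NF-YB2, chr5:19308811-19308960, + strand: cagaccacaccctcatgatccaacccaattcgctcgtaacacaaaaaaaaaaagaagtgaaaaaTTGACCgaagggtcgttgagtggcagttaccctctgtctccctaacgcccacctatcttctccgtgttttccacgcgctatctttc

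GI, which encodes the clock protein GIGANTEA, held an evening element on each strand with a site II element between them. STOP1, a zinc finger factor for tolerance of acid soil and aluminium, held a DRE and a TATA motif, and NF-YB2, a subunit of the CCAAT-binding factor NF-Y, held a W-box. The window at GolS2, a galactinol synthase that makes protective sugars under heat and drought, and the window beside the tRNA gene AT4G03435 held none of the 9 motifs. The next set shows the 3 highest members with a G-box whose window touches no untranslated region, a set chosen after the values were seen because the G-box set the members apart.
SIG4, chr5:4431137-4431286, + strand: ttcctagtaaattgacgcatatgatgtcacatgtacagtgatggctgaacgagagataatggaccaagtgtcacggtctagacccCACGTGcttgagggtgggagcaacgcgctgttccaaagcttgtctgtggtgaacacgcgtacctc
AT2G09535, chr2:18423126-18423275, + strand: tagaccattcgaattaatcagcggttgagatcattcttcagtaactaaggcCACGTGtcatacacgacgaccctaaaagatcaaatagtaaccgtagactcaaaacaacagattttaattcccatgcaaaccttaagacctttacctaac
RSZ21, chr1:8430061-8430210, + strand: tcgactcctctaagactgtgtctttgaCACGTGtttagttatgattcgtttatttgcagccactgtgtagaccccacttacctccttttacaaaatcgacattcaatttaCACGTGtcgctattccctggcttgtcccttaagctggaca

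SIG4 encodes a sigma factor of the plastid RNA polymerase, and RSZ21 a splicing factor with an RS domain. The RSZ21 window held 2 G-boxes. AT2G09535 is a long noncoding RNA gene, and the nearest protein-coding start there is that of AT2G44660, a glycosyltransferase of the ALG6, ALG8 family. The last pair shows the 2 members with the largest ratio between accessions, both of which lie in untreated Col-0 peaks on chromosome 3 far from any protein-coding start. Neither held a motif that was searched.
AT3G33058, chr3:13591621-13591770, + strand: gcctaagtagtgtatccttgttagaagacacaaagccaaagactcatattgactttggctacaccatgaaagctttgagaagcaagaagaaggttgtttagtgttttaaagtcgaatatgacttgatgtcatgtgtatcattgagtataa
AT3G33055, chr3:13587570-13587719, + strand: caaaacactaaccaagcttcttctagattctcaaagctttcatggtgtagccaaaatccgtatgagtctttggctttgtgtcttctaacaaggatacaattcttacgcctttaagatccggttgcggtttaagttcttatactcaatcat

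The 4 files of an accession held between 1463227 and 2442198 tags, the mapped reads that the peak caller counts, and untreated Col-0 held 10822758 to 11043945 per file. The number of consensus regions did not follow the number of tags. Mt had 21075 regions, Og 15010, En-2 11959, Ad-0 6590 and Hi 6080. Hi had more tags per file (2180518 to 2230281) than Mt (1752896 to 1805096). Pileups at the members were compared between files by an index that is 1 for random draws from 1 library. It ranged from 0.823 to 1.02 over the 30 pairs of files of the same accession and from 3.47 to 8.39 over 10 pairs of different accessions. The files of an accession thus differed by no more than about the sampling noise. Each accession was counted as 1 sample, and its value is the mean over those of its files that list a peak. The SD over these files is technical, and no test between accessions was possible. Where a file lists no peak it gives no value, so the depth there is unknown. All 4 files listed a peak at 2950 members in Ad-0 and at 2896 in Hi. In En-2 it was 3721 members, in Mt 3760 and in Og 3777.

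The members took very unlike shares of the 5 consensus sets. They made up 56.5% of the consensus bases of Ad-0 and 52.1% of those of Hi, 29.2% in En-2, 19.6% in Og and 15.9% in Mt. The shortest lists therefore set the number of members. When Hi was not required the count was 5505, and when Ad-0 was not required it was 5183, while it was 3954 without En-2, 3984 without Mt and 3969 without Og. At the other end, 8086 regions lay in the consensus of 1 accession and touched no other consensus. Of these, 6137 (75.9%) were of Mt, 1244 of Og, 526 of En-2, 122 of Ad-0 and 57 of Hi.

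The threshold of 50 bp left out 121 shorter runs. Heights are given as normalised pileup, the number of extended tags stacked over a peak's summit per 1000000 tags of the file. These tags are not limited to the nuclear chromosomes. The 30 members of 50 to 59 bp had a median height of 10.3 normalised pileup, and the 29 runs of 40 to 49 bp just outside had the same median of 10.3. Members were 50 to 1048 bp wide with a median of 208 bp and quartiles of 154 and 277 bp. In 203 members the highest peak of at least 1 file was shared with another member, so these are not separate observations.

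Most members lay at gene starts. The midpoint of 2782 of 3903 members (71.3%) fell between 1000 bp upstream and 200 bp downstream of an annotated gene start, against 63.0% of the regions of 1 accession alone and 32.8% of nuclear bases. Merged regions were also grouped by the largest number of accessions that covered any of their bases. Their share at a start was 70.2% for 2 accessions, 73.0% for 3, 71.4% for 4 and 71.8% for 5. This share was thus not particular to the members. By accession, regions of 1 accession alone lay at a start in 42.6% for Ad-0, 56.5% for En-2, 70.2% for Hi, 65.3% for Mt and 56.3% for Og, so the 57 regions of Hi were close to the members. Start windows on both strands covered the midpoint of 817 members (20.9%), against 11.2% of regions of 1 accession alone and 4.26% of nuclear bases. Such a midpoint need not lie between the starts. By accession, regions of 1 accession alone ranged from 6.56% in Ad-0 to 17.5% in Hi. Of the bases covered by 3 accessions 19.6% lay in start windows on both strands, and of those covered by 4 19.4%, against 21.1% for all 5. With protein-coding genes only, 614 members (15.7%) lay in them, against 7.67% of regions of 1 accession alone and 2.47% of nuclear bases. For starts on a single strand the shares were 50.3% for members and 51.8% for regions of 1 accession alone, close to each other. Gene bodies held 402 members (10.3%), against 42.4% of nuclear bases. A further 262 members (6.71%) lay at gene ends and 457 (11.7%) in intergenic DNA. With protein-coding genes only, 65.5% of members lay at a start, against 57.0% of regions of 1 accession alone and 25.01% of nuclear bases.

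**Figure D1:**
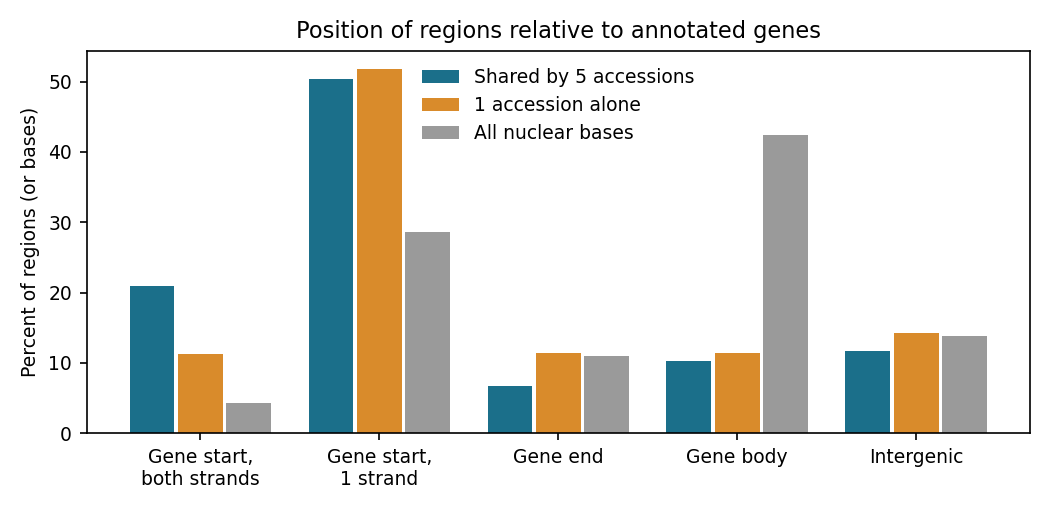
Percent of members, of regions in the consensus of 1 accession alone and of all nuclear bases in each position class relative to annotated TAIR10 genes. Members reach 20.9% in start windows on both strands, against 11.2% and 4.26%, and gene bodies hold 10.3% of them against 42.4% of nuclear bases. Regions of 2, 3 or 4 accessions are not drawn.

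Members sat close to the start and on its upstream side. Of all members, 1843 (47.2%) had their midpoint within 200 bp of a protein-coding start, against 37.9% of regions of 1 accession alone. The median distance was 237 bp for members and 514.5 bp for regions of 1 accession alone. Most of the latter are of Mt, and the distances were not split by accession. Among the 2741 members within 1000 bp, 69.6% lay upstream and the median position was 68 bp upstream. Among regions of 1 accession alone, 58.9% of those within 1000 bp lay upstream, with a median of 33 bp upstream. By transcript feature, the midpoint of 2612 members (66.9%) lay outside protein-coding genes, 709 (18.2%) in a 5′ untranslated region, 266 (6.82%) in coding sequence, 203 (5.20%) in a 3′ untranslated region and 113 (2.90%) in an intron.

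**Figure D2:**
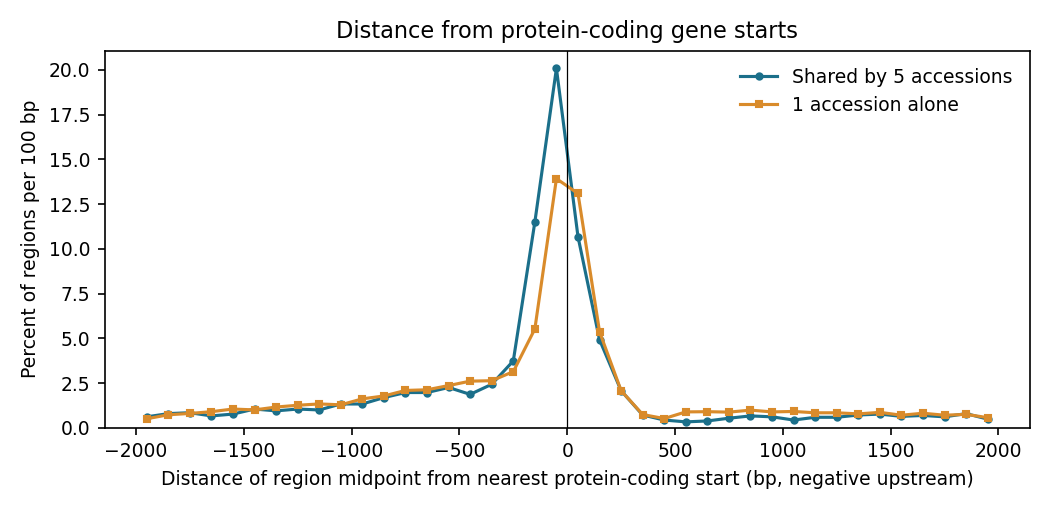
Percent of members and of regions of 1 accession alone per 100 bp of distance between the region's midpoint and the nearest protein-coding start, with upstream to the left. Both curves peak beside the start, and 47.2% of members lie within 200 bp of it, against 37.9% of regions of 1 accession alone. Most regions of 1 accession alone are of Mt.

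At the level of genes, 3252 of 27444 protein-coding genes (11.8%) had a member overlapping the window at their start. In 3112 of them it was 1 member, in 139 it was 2 and in 1 it was 3. The number of members that overlapped the windows of 2 or more genes was 690. The chromosomes carried similar densities, from 30.03 members per Mb on chromosome 5 to 37.7 on chromosome 2. Every full 1 Mb window held at least 2 members, and the fullest held 75.

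Base composition and short motifs, which the rule did not use, differed between the members and regions of 1 accession alone. The GC content was 39.9% in members, against 35.0% in regions of 1 accession alone, 31.9% in the 150 bp before protein-coding starts and 36.03% in the nuclear chromosomes. Most regions of 1 accession alone are of Mt, which had 34.3%, and the others were closer to the members, with 38.4% in Hi alone, 37.8% in En-2 alone, 37.1% in Ad-0 alone and 36.5% in Og alone. The G-box CACGTG was found on either strand of the middle 150 bp in 742 members (19.0%), against 5.13% of regions of 1 accession alone and 4.78% of the windows before protein-coding starts. By accession, regions of 1 accession alone held a G-box at 3.51% in Hi to 9.32% in En-2, below the members in each. Site II (TGGGCC) was found in 21.9% of members, against 13.4% of regions of 1 accession alone and 11.2% of promoter windows. By accession, the regions of 1 accession alone held it at 11.5% in Ad-0, 12.9% in Mt, 14.4% in Og, 16.7% in En-2 and 17.5% in Hi. The DRE core CCGAC, bound by cold and drought factors, was found in 15.7% of members, against 10.7% and 8.05% in the same comparison sets. The TATA motif TATAAA ran the other way, with 20.7% of members, against 25.9% of regions of 1 accession alone and 34.0% of promoter windows. By accession it was 21.3% in Ad-0 alone, 22.4% in Og, 22.8% in Hi, 24.0% in En-2 and 26.9% in Mt. All but Mt were thus closer to the members than the pooled value.

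The other 5 motifs differed by fewer percentage points. I-box (GATAAG, of light-regulated promoters) was found in 11.5% of members, against 8.53% of regions of 1 accession alone and 7.62% of promoter windows. W-box (TTGACC, bound by WRKY factors) was found in 10.4% of members, against 9.28% and 7.99%. GAGA repeats (GAGAGAGA) were found in 4.66%, against 5.80% and 3.29%, telo boxes (AAACCCTA) in 1.61%, against 2.23% and 3.04%, and evening elements (AAAATATCT) in 1.31%, against 1.10% and 1.44%. Matches of different motifs may overlap. None of the motif shares was adjusted for GC content, which differed between the sets, and its part in them was not tested.

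**Figure D3:**
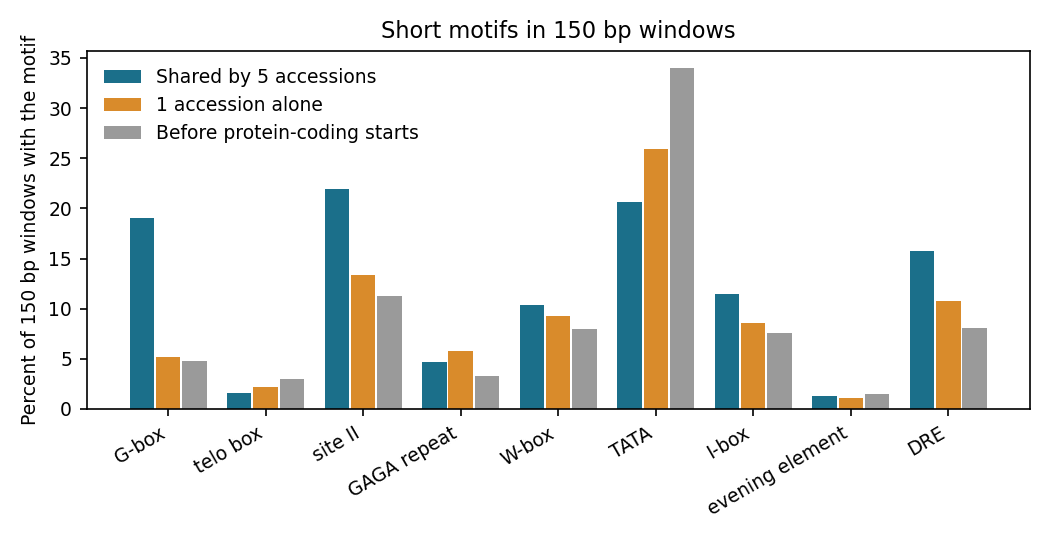
Percent of 150 bp windows with each of 9 motifs on either strand, in members, in regions of 1 accession alone and before all protein-coding starts. The G-box stands at 19.0%, 5.13% and 4.78%, and TATA at 20.7%, 25.9% and 34.0%. Most regions of 1 accession alone are of Mt.

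The G-box share climbed with the number of accessions. Merged regions were ordered by the largest number of accessions that covered any of their bases. The share with a G-box was 5.13% for 1 accession, 7.58% for 2, 10.9% for 3, 11.7% for 4 and 19.1% for 5. GC content of the same windows was 35.0%, 36.4%, 37.7%, 38.0% and 39.9%. Site II was highest in the middle of this range, at 25.6% for 3 accessions, against 13.4% for 1 and 21.6% for 5. Signal height moved along with sharing. Regions of Mt alone had a median of 7.04 normalised pileup in Mt, against 19.3 for members in Mt. Of the 81 regions of Mt alone that reached the lower quartile of members in that accession, 1 held a G-box. For En-2 it was 4 of 26, for Og 3 of 67, for Ad-0 2 of 51 and for Hi 0 of 26. The part of height in the G-box share was not tested beyond these counts.

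Among the members, the G-box was found at similar rates in all position classes, from 16.0% at gene ends to 23.4% in intergenic DNA. Site II was most frequent in start windows on both strands, in 262 of 817 members (32.1%), and least in gene bodies, at 13.4%. Both motifs were found together in 122 members. Members with a G-box outside untreated Col-0 peaks had a median height of 15.6 normalised pileup, against 14.2 for those without, and a median width of 224 bp, against 206 bp. The ratio of the highest to the lowest accession was nearly the same, with a median of 2.52 with a G-box and 2.53 without.

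Untreated Col-0 listed a peak at 120 of the 3903 members (3.07%), against 0.767% of regions of 1 accession alone and 0.151% of nuclear bases. The pooled value is mostly that of Mt alone (0.0978%), and regions of Ad-0 alone were above the members, with 24 of 122 (19.7%), while Og alone had 2.17%, Hi alone 1.75% and En-2 alone 0.760%. Of the 120, 67 lay on chromosome 2, and 45 of those in 1 window of 1 Mb that holds the known insertion of mitochondrial DNA beside the centromere. Another 13 lay in the first Mb of chromosome 2, which starts with ribosomal RNA genes. Of the 120, 51 (42.5%) lay at an annotated gene start, against 2731 of the 3783 other members (72.2%). Their median heights were 60.6 normalised pileup in Ad-0, 49.7 in En-2, 67.9 in Hi, 28.0 in Mt and 53.3 in Og, against 9.49, 17.8, 9.96, 19.1 and 14.4 for the 3783 other members in the same order. Untreated Col-0 itself had a median of 44.9 at the 120. In Ad-0, En-2, Hi and Og the median of these members was thus several times that of the others, and in Mt the gap was smallest.

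The order of the accessions differed between these sets. Over all members En-2 was highest at 1672 and Mt at 1717, while Ad-0 was lowest at 1926 and Hi at 1594. Among the 120 in untreated Col-0 peaks, Hi was highest at 46 and Mt lowest at 77, and Ad-0 or Hi was lowest at 1.

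**Figure D4:**
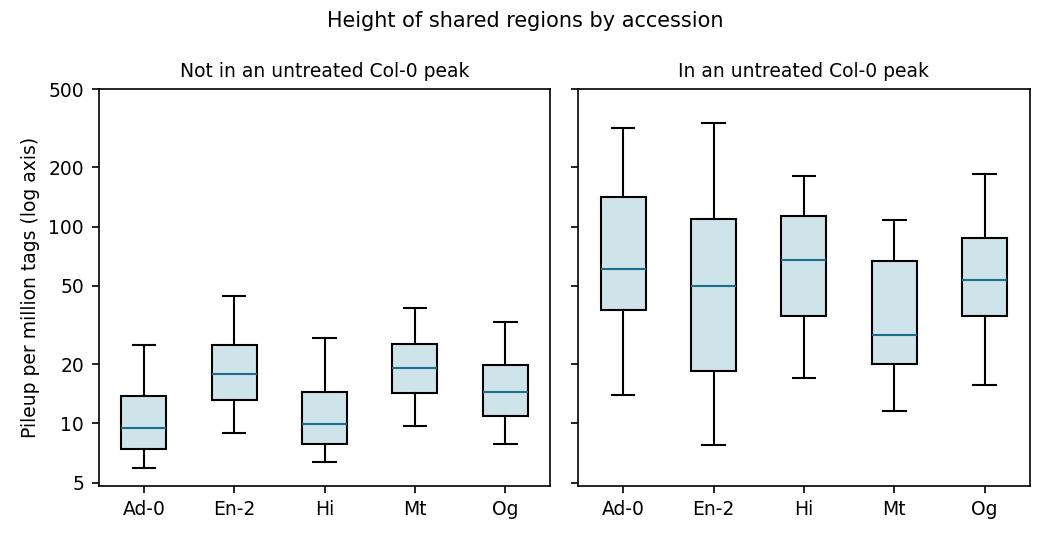
Normalised pileup of members by accession on a log axis, for members outside and inside untreated Col-0 peaks. Boxes span the quartiles with the median as a line, and whiskers run from the 5th to the 95th percentile of members. Outside these peaks Mt and En-2 have the highest medians (19.1 and 17.8), and inside them Mt has the lowest (28.0).

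In each file the height of a member was the highest pileup of any peak over it. Over all members the mean of the 5 accessions had a median of 14.6, with 9.92 at the 10th and 28.1 at the 90th percentile. All 20 files listed a peak at 2207 members (56.5%). The SD over the files of an accession was 14.4% of the mean for the median member. Outside untreated Col-0 peaks, heights varied little between position classes, from a median of 12.8 at gene ends to 15.1 in start windows on both strands.

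The ratio of the highest to the lowest accession was at least 2 at 3162 members (81.0%), with a median of 2.54, a range of 1.21 to 10.6, and 275 members at 4 or more. Of the 10 pairs, Mt over Ad-0 had the largest median, 0.85 on the log2 scale (1.80-fold), and 1701 members (43.6%) differed 2-fold or more, against 37.6% of all 6091 regions that both accessions share. En-2 over Ad-0 had a median of 0.81, and 30.9% of members differed 2-fold, against 25.4%. Mt over Hi had a median of 0.80, and 36.6% of members differed, against 35.4%. Hi over En-2 had a median of -0.76, and 35.5% of members differed, against 26.8%. Og over Ad-0 had a median of 0.49, with 23.7% of members, against 17.5%.

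The remaining pairs were nearer to each other. Og over Hi had a median log2 ratio of 0.44, and 7.71% of members differed 2-fold, against 8.06% of all regions of the pair. For Og over Mt the median was -0.35, with 9.10% against 9.87%. For Og over En-2 it was -0.34, with 15.0% against 10.4%. The medians of Hi over Ad-0 (0.05) and Mt over En-2 (0.03) were close to 0, yet 11.8% and 13.0% of members differed 2-fold, against 11.7% and 12.4% of all regions of these pairs. The regions of a pair include the members, and pairs share accessions. When each pair was centred on the median over all its regions, 1523 members differed 2-fold in at least 1 pair in place of 3162. Centring lowered the number for En-2 over Ad-0 to 123 members (3.15%, against 3.01% of all regions) and for Hi over En-2 to 486 (12.5%, against 11.4%), so little of the excess in these pairs was left. For Hi over Ad-0 it was 453 (11.6%, against 11.4%), close to the value before centring. For Mt over En-2 it was higher, at 545 (14.0%, against 10.8%). An excess was also left for Mt over Ad-0 (15.4%, against 13.5%), Og over Ad-0 (13.9%, against 11.1%) and Og over En-2 (10.8%, against 8.94%). Little or none was seen for Mt over Hi (8.22%, against 8.07%), Og over Hi (3.69%, against 4.01%) and Og over Mt (4.84%, against 4.60%).

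Fold enrichment, the ratio of a peak's pileup to the background around it that the authors deposited, gave a narrower spread. The values below are normalised pileup unless fold enrichment is named, and the order of accessions can differ between the scales. The median fold enrichment over members was 6.61 in Ad-0, 9.38 in En-2, 6.14 in Hi, 9.79 in Mt and 7.78 in Og. By this measure 1767 of 3903 members differed 2-fold in at least 1 pair. No share over all regions is given on this scale, so this number cannot be set against other regions.

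The 10 highest members outside untreated Col-0 peaks included 5 that lay before a protein-coding gene of known function, GolS2, GI, STOP1, NF-YB2 and SIG4. Accession values are given as mean ± SD in normalised pileup over the files that list a peak, at most 4 per accession. At GolS2 (chr1:21206987-21207406, 341 bp upstream) they were 75.6 ± 5.37 in Ad-0, 123 ± 6.98 in En-2, 99.5 ± 5.28 in Hi, 64.7 ± 4.15 in Mt and 88.7 ± 2.61 in Og. Mt, which was among the highest accessions over all members, was lowest at this one. At the tRNA gene AT4G03435 (chr4:1520501-1520958, 166 bp upstream of EMB2770, a splicing factor-like protein) they were 38.7 ± 4.32 in Ad-0, 89.0 ± 4.97 in En-2, 122 ± 8.67 in Hi, 75.5 ± 5.83 in Mt and 101 ± 4.19 in Og. By normalised pileup Hi was the highest here and Ad-0 the lowest, 3.14-fold apart, while by fold enrichment the range was 1.45-fold, with 20.7 in Ad-0 close to 22.3 in Mt and 22.8 in Og.

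At GI (chr1:8060648-8061233, 811 bp upstream) the values were 73.4 ± 2.05 in Ad-0, 107 ± 9.54 in En-2, 42.1 ± 3.86 in Hi, 61.7 ± 5.81 in Mt and 55.3 ± 6.64 in Og. The window of this member is the one that holds 2 evening elements above. At STOP1 (chr1:12550009-12550550, 60 bp upstream) they were 39.8 ± 3.82 in Ad-0, 85.0 ± 8.72 in En-2, 84.2 ± 3.44 in Hi, 54.2 ± 3.74 in Mt and 56.6 ± 4.94 in Og. En-2 and Hi did not differ beyond the SD at STOP1, and neither did Mt and Og. At NF-YB2 (chr5:19308536-19309237, 341 bp upstream, in start windows on both strands) En-2 was highest by normalised pileup at 99.97 ± 3.74. Ad-0 had 57.1 ± 3.86, Hi 50.9 ± 1.48, Mt 46.0 ± 5.23 and Og 50.2 ± 3.94. By fold enrichment Ad-0 (15.8), En-2 (15.6) and Hi (14.6) were close to each other.

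SIG4 (chr5:4431033-4431391, 311 bp upstream) had 59.2 ± 6.64 in Ad-0, 97.8 ± 5.96 in En-2, 27.6 ± 2.11 in Hi, 41.2 ± 5.40 in Mt and 37.9 ± 2.22 in Og, a 3.54-fold range that was 1.47-fold by fold enrichment. AT5G40340, a Tudor/PWWP/MBT family protein with the member in its 5′ untranslated region, ranged 1.75-fold, from 42.0 in Ad-0 to 73.5 in En-2, while by fold enrichment Og was lowest (17.2) and Ad-0 had 26.9. The other 3 of the 10 highest members lay next to each other on chromosome 2 at AT2G07652 and the pseudogene AT2G07723, where Hi had 92.2 and Mt 25.4 to 27.4, and their highest peaks are partly the same. They overlapped no consensus peak of untreated Col-0 but lie in the same window of 1 Mb as 45 members that did. Their fold enrichment was 2.05 to 2.57, against 10.3 to 33.4 over the 5 accessions at GolS2, AT4G03435, GI, STOP1 and NF-YB2.

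The RSZ21 member (chr1:8429994-8430278, 638 bp upstream) with its 2 G-boxes had 48.7 ± 4.13 in Ad-0, 92.2 ± 3.76 in En-2, 31.7 ± 4.02 in Hi, 36.7 ± 1.58 in Mt and 37.6 ± 3.59 in Og. The AT2G09535 member (chr2:18422869-18423533) had 56.6 ± 1.92 in Ad-0, 76.4 ± 7.12 in En-2, 36.2 ± 2.47 in Hi, 41.9 ± 2.60 in Mt and 40.6 ± 3.15 in Og. By normalised pileup En-2 was highest and Ad-0 second in both, although Ad-0 was the lowest accession at 1926 members. By fold enrichment this order held at RSZ21, and at AT2G09535 Ad-0 (17.8) was above En-2 (17.3).

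The widest member, 1048 bp, lay 977 bp upstream of GBF3, which encodes a leucine zipper protein that binds the G-box. It had 30.5 ± 2.15 in Ad-0, 51.3 ± 3.65 in En-2, 17.7 ± 1.80 in Hi, 31.9 ± 3.11 in Mt and 25.2 ± 0.202 in Og. The second widest, 910 bp, lay within the coding exon of the aspartyl protease gene AT5G37540, with 32.7 in Ad-0, 58.1 in En-2, 45.4 in Hi, 47.5 in Mt and 47.5 in Og. The others were 812 bp before AT1G09520, an uncharacterized protein, 797 bp before OXS2, a CCCH zinc finger protein of oxidative stress, and 795 bp in the 3′ untranslated region of PME2, 334 bp upstream of the pectin methylesterase gene PME1. Their means over accessions were 17.0, 31.2 and 18.0, and those of the GBF3 and AT5G37540 members were 31.3 and 46.3. All 5 were above the median of 14.6 over all members. The relation of width and height was not tested.

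Of the 5 largest ratios between accessions, among members listed in all 20 files, 4 were in untreated Col-0 peaks. Members that any file did not list were left out of this ranking. Over all members at a single-strand start outside untreated Col-0 peaks, the ratio reached 9.52-fold. AT3G33058 (chr3:13591595-13591797) had 74.4 ± 7.44 in Ad-0, 17.5 ± 2.84 in En-2, 71.8 ± 6.10 in Hi, 65.5 ± 7.11 in Mt and 186 ± 12.5 in Og, a 10.6-fold range. AT3G33055, AT5G31770 and AT4G06700, all of them pseudogenes, followed with 10.5-fold, 8.24-fold and 7.63-fold. By normalised pileup Og was the highest and En-2 the lowest accession in all 4. By fold enrichment the ranges of these 4 were 1.49-fold to 2.02-fold, Og was highest at AT3G33055 only, and En-2 was lowest at all but AT4G06700.

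The fifth was of another kind. The member in the coding exon of AT1G63420, an O-glucosyltransferase-like protein (chr1:23516570-23516868, 1039 bp into the gene), lay outside untreated Col-0 peaks. It had 62.3 ± 0.197 in En-2, against 24.1 ± 1.44 in Hi, 19.7 ± 2.65 in Mt, 11.8 ± 1.03 in Ad-0 and 9.10 ± 1.13 in Og. The range was 6.84-fold by normalised pileup and 4.202-fold by fold enrichment, so En-2 was highest on either scale.

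The most even members ranged 1.22-fold to 1.36-fold. At the noncoding RNA gene AT1G09043 the values were 10.2 ± 1.72 in Ad-0, 9.26 ± 1.18 in En-2, 9.29 ± 1.82 in Hi, 11.3 ± 1.35 in Mt and 10.5 ± 2.38 in Og, and the intervals of 1 SD around all 5 means overlapped. The others lay before AT4G03410 (in the 5′ untranslated region of DFL2), in the 3′ untranslated region of the zinc finger gene IDD5, at the tRNA gene AT4G11216, and 18 bp past the start of ftsh4, a mitochondrial protease. AT4G11216 was the highest of them, from 31.9 ± 4.77 in Ad-0 to 43.0 ± 4.56 in Mt. By fold enrichment its order turned, with 16.5 in Ad-0 and 11.6 in Mt, and at AT1G09043, AT4G03410 and IDD5 the accessions that were highest and lowest by normalised pileup also changed order.

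Gene lists were used to describe which kinds of genes had a member at their start, against 11.8% of all protein-coding genes. The circadian clock list had the largest share, 9 of 12 genes (75%). LUX, a component of the evening complex, had 33.7 ± 4.73 in Ad-0, 60.7 ± 3.77 in En-2, 59.4 ± 4.07 in Hi, 47.4 ± 3.03 in Mt and 43.8 ± 4.43 in Og. The morning factor CCA1 had 32.6 ± 3.26 in Ad-0, 45.7 ± 5.92 in En-2, 18.8 ± 1.72 in Hi, 24.8 ± 1.88 in Mt and 33.5 ± 2.62 in Og. PRR7, a repressor of CCA1, had 33.2 ± 5.93 in Ad-0, 35.9 ± 3.77 in En-2, 12.2 ± 0.632 in Hi, 38.5 ± 3.83 in Mt and 14.2 ± 1.503 in Og. Hi and Og were apart from the other 3 accessions at PRR7, and at LUX Hi was as high as En-2. ELF3, RVE8 and ZTL had no member at their start, though all 12 clock genes had a consensus region there in at least 1 accession.

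The photosynthesis list of light harvesting, photosystem and Rubisco small subunit genes had 18 of 29 (62.1%), and 28 of 29 counting a consensus region in any accession. RBCS1A, a small subunit gene of Rubisco, had 24.2 in Ad-0, 48.3 in En-2, 23.7 in Hi, 19.8 in Mt and 26.2 in Og. LHCA4, an antenna protein of photosystem I, had 18.0 in Ad-0, 37.8 in En-2, 21.6 in Hi, 33.3 in Mt and 30.3 in Og. PSBO1, of the oxygen-evolving complex, ranged from 14.0 in Hi to 46.2 in En-2, and PSAF, which docks plastocyanin at photosystem I, from 14.6 in Ad-0 to 35.1 in Og. The order of the 5 means differed between the 4 genes. LHCB3, LHCB5, LHCB6 and PSBS were among the 11 genes of this list without a member.

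Photoreceptors and light signalling genes had a member at 5 of 13 (38.5%). HY5, which promotes light responses through the G-box, had 18.8 ± 1.69 in Ad-0, 49.8 ± 4.95 in En-2, 23.7 ± 1.41 in Hi, 43.6 ± 3.87 in Mt and 29.4 ± 3.25 in Og. PIF5 and PIF4, which bind G-boxes and act against light responses, had means over accessions of 24.9 and 14.3, and the red light receptor gene PHYB 16.2. PHYA, CRY2, PHOT1, PHOT2 and COP1 had none. Aux/IAA genes, the repressors of auxin response, had 9 of 24 (37.5%), led by IAA11 with a mean of 29.4, IAA16 with 19.6, IAA2 with 18.0 and IAA9 with 17.3. IAA9 ranged 4.35-fold, with 35.5 ± 2.36 in En-2 and 8.16 ± 2.49 in Hi.

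The histone list had 18 of 51 genes (35.3%), and the ribosomal protein list 59 of 344 (17.2%). Both lists may include some genes of other kinds. HTB11, a histone H2B gene, and RPS15AD, a ribosomal protein gene, share 1 member between their divergent starts. It had 17.9 ± 1.64 in Ad-0, 35.2 ± 3.90 in En-2, 44.9 ± 2.57 in Hi, 37.3 ± 5.51 in Mt and 38.0 ± 4.87 in Og, and Ad-0 was the lowest by more than the SDs. HTA8, HTB4 and HTA7 had means of 32.6, 32.1 and 26.4. The highest member of a ribosomal list gene, at AT2G07675, lay in an untreated Col-0 peak on chromosome 2, and AT4G17560 and AT4G00810 followed with 29.9 and 29.2 outside such peaks.

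Hormone and stress lists were nearer to the background. Ethylene signalling had 3 of 12 (25%), namely the F-box genes EBF1 (mean 16.1) and EBF2 (14.1) and the transcription factor gene EIL1 (13.0), and none of the receptors. Abscisic acid and water deprivation genes had 4 of 17 (23.5%). These were ABI1, a phosphatase of the signalling pathway, with a mean of 21.6, the leucine zipper genes ABF3 (17.7) and ABI5 (17.6), and the late embryogenesis gene RD29B (13.7). WRKY transcription factor genes had 14 of 67 (20.9%), but with a narrower window at the start 7 of 67 (10.4%), against 9.82% of all protein-coding genes. WRKY47 was the highest, from 22.1 ± 5.58 in Ad-0 to 58.5 ± 6.39 in Og, and WRKY28, WRKY32 and WRKY22 had means of 27.9, 21.6 and 20.5.

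NLR immune receptor genes had the smallest share, 4 of 141 (2.84%), while 73 of 141 (51.8%) had a consensus region in at least 1 accession, against 57.6% of all protein-coding genes. The highest of them, RPS2, shares its member with ABI1, which lies upstream of both starts. SNC1 had a mean of 12.9, RPS6 10.6 and AT3G44630 9.74. NLR genes lie in clusters of similar copies, so the peaks at single copies are uncertain.

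The lists of other organs and of leaf cell types were under the background. Seed storage and oleosin genes had 1 of 12, OLEO1, with 19.7 ± 2.52 in Mt and 6.43 ± 0.265 to 10.3 ± 2.45 in the other accessions. Floral identity genes had 1 of 12, SEP3, with a mean of 8.70. Among the leaf cell type markers, 1 of 18 had a member. It was TMM of the stomatal lineage, with a mean of 8.76, and the other markers of guard cells, phloem, xylem, trichomes and epidermis had none. A consensus region in at least 1 accession was found at 50% of the seed, 41.7% of the floral and 27.8% of the cell type genes. The share of all protein-coding genes was 57.6%. With 12 to 18 genes per list, the seed and floral shares (8.33%) and that of the cell type markers (5.56%) cannot be told from the 11.8% of all genes. Accessibility at a start is not a measure of expression.

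**Figure D5:**
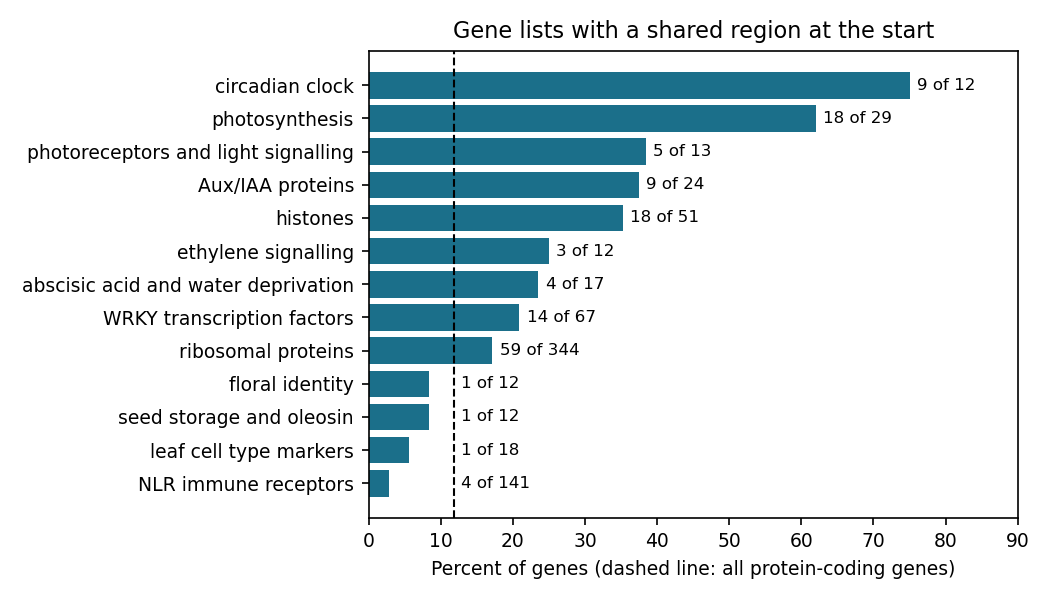
Percent of genes in each list with a member from 1000 bp upstream to 200 bp downstream of their start, with the number of genes beside each bar and the share of all protein-coding genes (11.8%) as a dashed line. Clock (75%) and photosynthesis genes (62.1%) have the largest shares and NLR genes (2.84%) the smallest.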

How the data were processed

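ATAC-seq peak lists of leaf from Ad-0, En-2, Hi, Mt, Og and untreated Col-0, 24 files, were used, and 72 lists on other sequences were not used here. The submitters' processing notes name Bowtie 1.2.2 and TAIR10. Per the file headers, the authors called peaks on each file with MACS2 2.1.2 from tags of 36 bp, with no control, all duplicates kept and a q-value cutoff of 0.05. The deposited pileup is a signal, the number of extended tags over a summit, with no scaling for depth. The deposited fold enrichment is a ratio to the background around the peak, and significance is deposited as −log10 of the q-value. Pileups were divided by the header's tags and given per 1000000 tags. The header counts all tags of a file, while only nuclear peaks were used. Heights can therefore shift with the share of tags on organelle sequences. How this share differed between accessions was not tested. Tags ranged from 1463227 to 2442198 per file in the 5 accessions, and their number limits the precision of each height. Reads of non-reference accessions can be lost where they differ from TAIR10.

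The 5 sets were intersected base by base over 119146348 bp of nuclear sequence with Python 3.11.15, NumPy 2.4.6 and SciPy 1.17.1. The code was tested on simulated data, with equal results in 50 of 50 trials. Genes, 37899 in number, came from the RefSeq annotation of the same chromosomes, and a gene end was taken from 200 bp inside to 500 bp past the annotated end. Of 125 genes listed by locus all were found. Named were the 10 highest members outside untreated Col-0 peaks, the 5 widest, the 5 with the largest and the 5 with the smallest ratio among members listed in all 20 files, and at most 4 genes per list. Members and lists were chosen with earlier results of these data known. Alternatives changed the number of files, the q-value, the files, accessions and peaks used, the length, the windows and the scale of the heights.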

Additional observations from a re-analysis of the deposited data

Results flagged for a closer look

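In 8 of 142 sets of 4 files, the gap between 1 file and the next made up most of the range of the set. Chance gives about 1 in 20 (7.10), and such a gap can be small beside the values. All are in normalised pileup at members named above. At AT4G03435 file 1 of Ad-0 had 32.3, against 40.05 to 41.3 in the other 3. At STOP1 file 3 of Mt had 59.8, against 51.9 to 52.7. At AT5G31770 file 1 of Og had 57.3, against 54.9 to 55.0. At AT4G03410 file 3 of Mt had 22.2, against 18.6 to 19.1, and at IDD5 file 4 of Mt had 15.2, against 23.8 to 25.2. At PME1 a file stood out in 3 accessions, file 1 of En-2 with 18.0, against 21.9 to 22.3, file 4 of Mt with 26.5, against 24.0 to 24.4, and file 2 of Og with 12.2, against 16.5 to 17.2.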

How the results depend on the processing

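No paired analysis was possible because no test between accessions was made. Requiring a base in all 4 files gave 2145 members and 427758 bp, of which 72.7% lay at a gene start, with a median width of 178 bp and a median height of 18.4 normalised pileup. With 1 file the width and height were 223 bp and 13.0, and with 3 files 197 bp and 16.2. Leaving out each replicate in turn gave 3413 to 3456 members, widths of 200 to 202 bp and heights of 15.2 to 15.4. Without Ad-0 the width was 227 bp, the height 14.3 and the share in untreated Col-0 peaks 2.33%, and without Hi they were 204 bp, 13.5 and 2.18%. The height was 13.6 without En-2 and 13.5 without Mt. Members of 100 bp or longer had 215 bp and 14.9, and without peaks as wide as the fragment length it was 222 bp and 15.3. Leaving out members in untreated Col-0 peaks takes that share to 0 by construction, and gave a GC content of 39.8%, an alternative added after seeing the data. Other alternatives for the members kept the count within 1.5 times of 3903.

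The share at a gene start was 55.7% for a window of 500 bp upstream to 100 bp downstream, against 46.2% of regions of 1 accession alone and 17.5% of nuclear bases. For a wider window it was 82.0%, against 75.9% and 53.7%, and for protein-coding starts 65.5%. With the narrow window 7 of 67 WRKY genes (10.4%) had a member in place of 14, against 9.82% of all protein-coding genes, and the other lists stayed within 1.5 times. In 300 bp windows, which hold more of any motif by construction, the shares of members were 28.2% for G-box, 4.53% for telo box, 32.3% for site II, 11.3% for GAGA repeat, 19.0% for W-box, 39.2% for TATA, 20.8% for I-box, 2.79% for evening element and 27.2% for DRE. The G-box share was then 7.62% in regions of 1 accession alone and 7.09% before protein-coding starts.

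The number of members with a 2-fold pair was 1523 after centring, 1095 at 3-fold, 1767 by fold enrichment and 3154 to 3199 without each replicate. Shares over all regions were set beside the members by pair and in normalised pileup only. Centred on all regions of a pair, median log2 ratios were 0.078 (En-2 over Ad-0), 0.084 (Mt over Ad-0), 0.13 (Og over Ad-0), -0.21 (Hi over En-2), -0.16 (Mt over En-2), -0.12 (Og over En-2) and 0.024 (Mt over Hi), and the sign turned for Mt over En-2 and also for Hi over Ad-0 (-0.013), Og over Hi (-0.0025) and Og over Mt (0.045). By fold enrichment, added after seeing the data, they were 0.40 (En-2 over Ad-0), 0.41 (Mt over Ad-0), 0.11 (Og over Ad-0), -0.48 (Hi over En-2), -0.026 (Mt over En-2), 0.49 (Mt over Hi), 0.22 (Og over Hi) and -0.27 (Og over Mt), and the sign turned for Mt over En-2 and for Hi over Ad-0 (-0.11). Leaving out a replicate gave 0.80 to 0.83 for En-2 over Ad-0 and 0.039 to 0.085 for Hi over Ad-0. By fold enrichment the ratio between the accessions that were highest and lowest by pileup was under 1 at one AT2G07723 member (0.986), AT1G09043 (0.916), AT4G03410 (0.783), IDD5 (0.967) and AT4G11216 (0.705). The cause was not tested.

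By fold enrichment the medians over members kept the order Mt, En-2 and Og, and Ad-0 and Hi changed places. Centring subtracts 1 constant per pair, so small medians can turn by construction. With 1 sample per accession none of the ratios has a biological error. Peak lists hold no value for a base without a peak, so members mark where all lists reach the caller's threshold and not where chromatin is equally open.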
